A study of Drosophila melanogaster with 24 samples.

Results

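The fatty acid elongase genes of *Drosophila melanogaster* described here are *CG18609*, *CG9458*, *CG16904*, *CG9459*, *CG5326*, *CG6660*, *bond*, *eloF*, *Elo68alpha* and *CG31523*, 10 genes of 11983 that the array's annotation pairs one to one with a probe set. They were named as elongases of very-long-chain fatty acids that include sex-biased members of hydrocarbon and male pheromone synthesis. They were chosen by membership of the family and by male and female Signals of these arrays, so sex bias is given as a description, with no test. Since other results of these arrays were known as well, counts over them describe the genes and support nothing beyond them. Whole flies came from lines selected for resistance to alcohol (R1 and R2), lines selected for sensitivity to alcohol (S1 and S2) and unselected control lines (C1 and C2), all derived from one genetically heterogeneous base population of wild-caught isofemale lines. At generation 25, virgin males and virgin females aged 3 to 5 days were collected from each line as 2 pools of 15 flies per sex, and each pool was hybridized to its own Affymetrix Drosophila Genome 2.0 array, giving 24 arrays. Flies of every group, controls included, are recorded in the sample labels as having met ethanol vapor before the RNA was taken. The published account of the arrays does not mention this exposure, so whether the levels are basal or follow ethanol is not settled here. The replicate arrays measure the spread between pools of flies, and each selection group rests on 2 lines.

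Fatty acid elongases sit in the membrane of the endoplasmic reticulum and catalyse the condensing first step of the cycle that lengthens a fatty acyl chain. A ketoacyl reductase, a dehydratase and an enoyl reductase complete each round. In insects the very long chains feed the hydrocarbons of the cuticle, which hold water in the body and serve as pheromones, and in males they also feed secretions of the ejaculatory bulb. Among the genes here, *eloF* makes the long-chain dienes of the female cuticle, *Elo68alpha* is the male elongase linked to *cis*-vaccenyl acetate, and *bond* (*james bond*) is needed for male fertility and for the male pheromone CH503. The other genes are assigned to the family by homology of sequence.

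The values are MAS5 Signals, a summary of the brightness of a probe set on a linear scale. A probe set was tested where its Signal reached 50 on at least 12 of the 24 arrays, which kept 11857 of 18769 probe sets that are not controls of the array. The 10 genes had 12 probe sets, of which 11 were tested. *CG5326* had 3 probe sets, called a, b and c here, and c lay between 0.931 and 5.75 on the 24 arrays and was not tested. The 2 pools of a line and sex correlated at 0.978 to 0.986 in males and at 0.958 to 0.974 in females, over log2 Signals of the tested probe sets. The lowest value was that of S1 females, where 5 muscle transcripts summed to a Signal of 14581 in pool 1 and 72772 in pool 2. Transcripts of the male accessory gland (9 genes) summed to 75990 or more in each male pool and to at most 190.5 in each female pool, and yolk protein and other female fat body transcripts (4 genes) to at most 483.9 in males and 48362 or more in females.

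*CG6660* and *bond* were called lower in resistant than in sensitive flies, and the other 9 tested probe sets of these genes had differences of the same sign that did not pass the 2-step test. In 10 of the 11 tested probe sets, both resistant lines lay below both sensitive lines in males and again in females, where 3.39% of all tested probe sets showed this order. The exception was probe set b of *CG5326*. The 10 include *eloF* and *Elo68alpha*, which were near the bottom of the scale in males and in females respectively. Their order in that sex carries no weight. The mean Signal of *eloF* was 51.63 in R2 males and 51.95 in S2 males, and female pools of *Elo68alpha* ranged from 2.32 to 54.3. The median difference of the 11 was -1.11 on the log2 scale, against 0.03 over all tested probe sets. All 11 differences were negative. Those of *CG18609* (-1.56 ± 0.234, SE), *CG6660* (-1.47 ± 0.21), *CG9459* (-1.34 ± 0.234), *CG9458* (-1.25 ± 0.195), *CG16904* (-1.11 ± 0.178) and probe set a of *CG5326* (-1.06 ± 0.255) were beyond -1. So was that of *Elo68alpha* (-1.36 ± 0.468), which has no place in this order, since it rests on female Signals near the bottom of the scale and is -0.78 ± 0.661 in males.

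**Figure D1:**
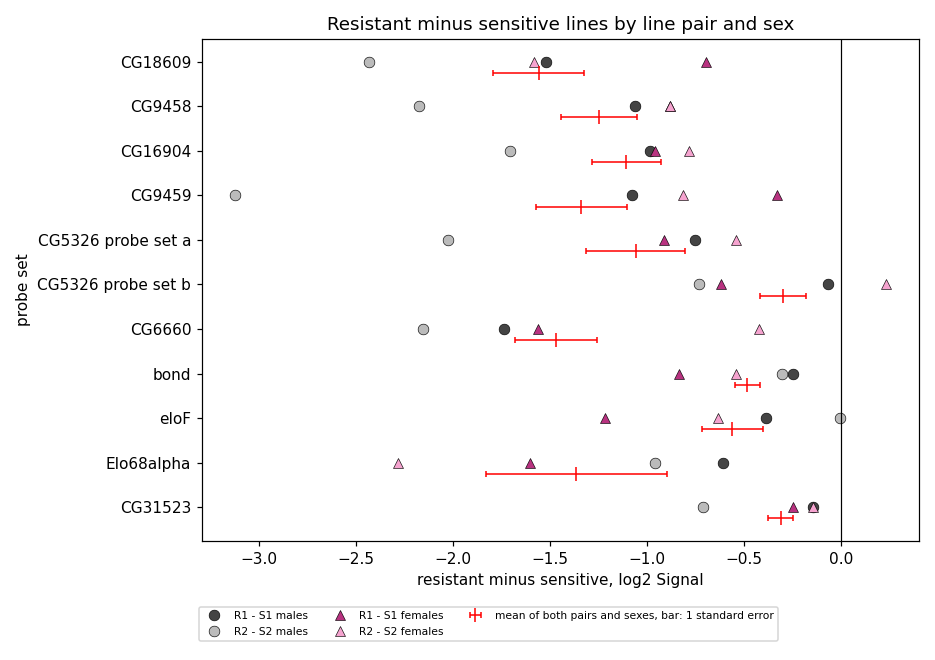
Difference in log2 Signal between a resistant and a sensitive line of the same number (horizontal axis) for each tested elongase probe set (vertical axis), in males (circles) and females (triangles), with the mean over both pairs and both sexes and its standard error in red. Of the 44 points, 1 lies above 0, that of probe set b of *CG5326* in females of R2 and S2.

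Calls followed the 2 steps of the study's methods: a difference among the 6 lines, or a line by sex interaction, at a limma adjusted p under 0.001, and then a contrast p under 0.05. By this rule 2 of the 11 probe sets, *CG6660* and *bond*, were lower in the resistant than in the sensitive lines, against a background of 3.54% of tested probe sets called lower. Within males the same 2 were called lower (background 2.89%), and within females too (background 3.04%). The same pair made up the 2 probe sets called for the line effect, where the background was 12.3%. The line by sex interaction called 0 of the 11 (background 0.245%), and 2 of them, *CG9459* and *bond*, had an unadjusted interaction p under 0.05 (background 22.4%). When the contrast was judged by its own adjusted p under 0.05, a rule added after the data were seen, 9 of the 11 were lower in the resistant lines (background 6.37%). The rule left out *Elo68alpha* (adjusted p = 0.0586) and probe set b of *CG5326* (adjusted p = 0.105). With the mean of each line as 1 value, 2 lines against 2, limma called 0 probe sets of the 11 or of the whole array, with unadjusted p-values of 0.000289 to 0.0367 for the 11, adjusted p-values of 0.685 to 0.934, and 612 probe sets of the array at an unadjusted p under 0.05. The calls therefore refer to the spread between pools and not between lines.

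*CG18609*, an elongase gene known by homology, showed the largest difference. In males its Signal was 2770 and 1222 in R1 and 1586 and 967 in R2, against 7205 and 3881 in S1 and 7006 and 6401 in S2. Control males gave 5804 and 2367 in C1 and 4755 and 4711 in C2. Every resistant male pool thus lay below every sensitive one, and only the lower C1 pool came within the resistant range. In females the Signal was 1205 and 897 in R1, 786 and 862 in R2, 1095 and 2593 in S1, 2536 and 2391 in S2, 1417 and 1365 in C1 and 797 and 1472 in C2. One of the 4 sensitive female pools, pool 1 of S1, fell inside the resistant range. The resistant lines were 2.95-fold lower than the sensitive lines (limma adjusted p = 0.000234). The difference was -1.98 ± 0.331 in males (adjusted p = 0.00112) and -1.14 ± 0.331 in females (adjusted p = 0.0483). *CG18609* was nevertheless not called by the 2-step rule, since its line effect had an adjusted p of 0.00146.

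*CG9458*, *CG16904* and *CG9459* are elongase genes that follow each other on chromosome arm 3R, with *eloF* next to *CG16904* and *CG8534*, a further elongase gene, next to *eloF*. *CG9458* gave Signals of 1702 and 1097 in R1 males and 994 and 983 in R2 males, against 3822 and 2126 in S1 males and 4575 and 4347 in S2 males. In females it gave 1156 and 991 in R1, 983 and 1140 in R2, 1379 and 2822 in S1, and 2032 and 1868 in S2. The resistant and sensitive pools did not overlap in either sex. Controls lay between and across the other groups, at 3533 and 1432 in C1 males, 2200 and 1886 in C2 males, 1808 and 1962 in C1 females and 760 and 1349 in C2 females. *CG9458* was 2.38-fold lower in the resistant lines (adjusted p = 0.000323), and its line effect had an adjusted p of 0.0017.

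*CG16904* followed the same order. Its Signal was 6121 and 3339 in R1 males, 4057 and 4128 in R2 males, 11290 and 7073 in S1 males, and 12757 and 13956 in S2 males. In females it was 4087 and 2849 in R1, 3665 and 4051 in R2, 4875 and 8999 in S1, and 6882 and 6419 in S2. Again every resistant pool was below every sensitive pool of its sex. Control pools ranged from 5661 to 10190 in males and from 2519 to 7064 in females. The resistant lines were 2.16-fold lower than the sensitive lines (adjusted p = 0.00043), with a line effect at an adjusted p of 0.00222.

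*CG9459* showed the widest range among males. Its Signal was 690 and 312 in R1 males and 315 and 255 in R2 males, against 1449 and 663 in S1 males and 2555 and 2391 in S2 males. The upper R1 pool and the lower S1 pool overlapped. R2 males differed from S2 males by -3.13 ± 0.467 (adjusted p = 0.000385), whereas R1 and S1 males differed by -1.08 ± 0.467 (adjusted p = 0.209). In females the values were closer, with 472 and 416 in R1, 388 and 452 in R2, 407 and 765 in S1, and 729 and 747 in S2. The female difference was -0.58 ± 0.33 (adjusted p = 0.365). The male minus female difference of the resistant minus sensitive contrast was -1.53 ± 0.467, with an adjusted p of 0.247, so the sexes were not shown to differ.

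*CG6660*, a further elongase gene on 3R, was called lower in the resistant lines by 2.77-fold (adjusted p = 0.000146, line effect adjusted p = 0.000485). Its Signal was 545 and 292 in R1 males and 392 and 390 in R2 males, against 1885 and 941 in S1 males and 1787 and 1696 in S2 males. In females it was 512 and 403 in R1 and 588 and 736 in R2, against 942 and 1914 in S1 and 872 and 890 in S2. No resistant pool reached a sensitive pool of its sex. The 2 control lines stood apart from each other, with 1837 and 706 in C1 males, 759 and 703 in C2 males, 1115 and 1338 in C1 females and 366 and 579 in C2 females. C1 exceeded C2 by 1.02 ± 0.297 on the log2 scale, a called difference. The call was lost for 14 of the 24 arrays when each was left out in turn, through the line effect, while the resistant minus sensitive difference stayed between -1.60 and -1.34.

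*CG5326*, an elongase gene near *bond* on 3R, was read by 2 tested probe sets. Probe set a gave 209 and 199 in R1 males and 95.6 and 192 in R2 males, against 428 and 277 in S1 males and 635 and 477 in S2 males. These male pools did not overlap. Female pools ranged from 78.4 to 166 in the resistant lines and from 152 to 279 in the sensitive lines, with overlap. The difference over both sexes was -1.06 ± 0.255 (adjusted p = 0.00919). Probe set b ranged from 790 to 1459 in resistant males and from 1067 to 1547 in sensitive males, and from 334 to 461 and from 367 to 592 in females. Its difference was -0.30 ± 0.119 (adjusted p = 0.105), and in R2 and S2 females it pointed the other way (0.23 ± 0.238). The annotation used here does not say which transcripts each probe set reads.

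*CG31523*, an elongase gene with *CG31522* as its neighbour on 3R, had small differences between groups. Its Signal was 6448 and 4700 in R1 males, 5183 and 5006 in R2 males, 5980 and 6210 in S1 males, and 8365 and 8316 in S2 males. S2 males were high beside every other male pool, the highest of which was 6597 in C1. The female pools ranged from 4313 to 5953. The resistant minus sensitive difference was -0.31 ± 0.066 (adjusted p = 0.00373), of which males of R2 and S2 showed -0.71 ± 0.132 and the other 3 combinations of pair and sex -0.25 to -0.14.

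**Figure D2:**
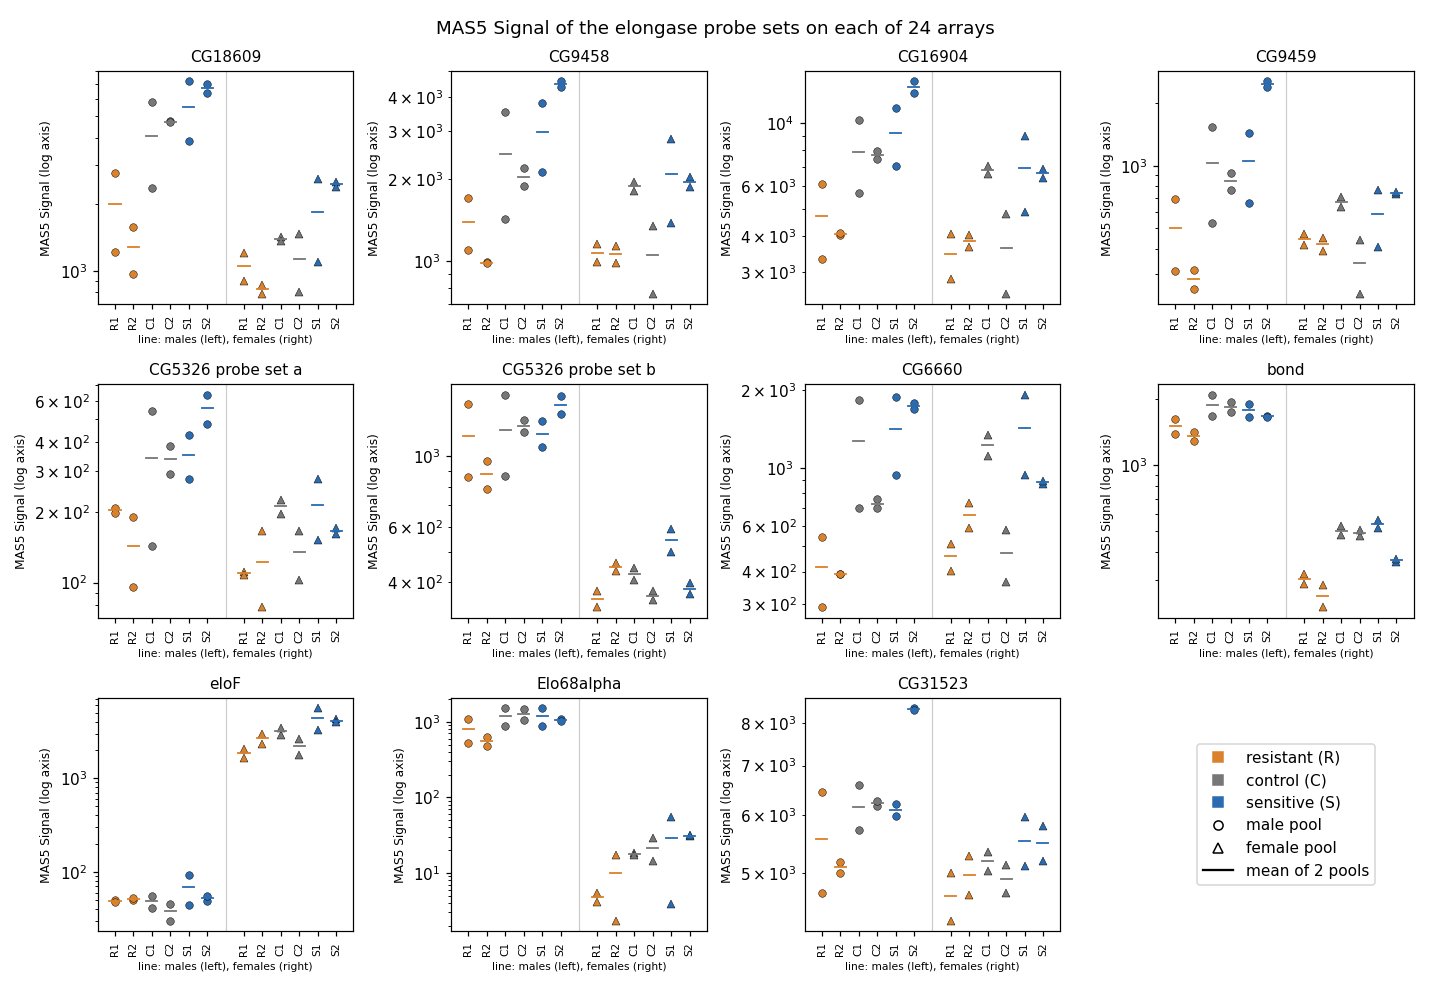
MAS5 Signal (vertical, log axis) of each tested elongase probe set on the 24 arrays, by line (horizontal), with males as circles on the left of each panel, females as triangles on the right and a bar at the mean of the 2 pools. Resistant pools (orange) lie below sensitive pools (blue) without overlap in males for *CG18609*, *CG9458*, *CG16904*, *CG6660*, *bond* and probe set a of *CG5326*.

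*bond*, the elongase of male fertility and of the pheromone CH503, had the least spread between pools, together with *CG31523* (SE 0.066 for each). In females its Signal was 320 and 286 in R1 and 224 and 283 in R2, against 516 and 564 in S1, 360 and 374 in S2, 478 and 527 in C1, and 476 and 503 in C2. Every resistant female pool lay below every sensitive and every control pool. In males the Signal was 1617 and 1384 in R1 and 1289 and 1411 in R2, against 1907 and 1659 in S1, 1671 and 1663 in S2, 2089 and 1666 in C1, and 1745 and 1943 in C2, again with no resistant pool inside either other range. The resistant minus sensitive difference was -0.48 ± 0.066 (adjusted p = 9.74e-05), with -0.28 ± 0.093 in males (adjusted p = 0.0772) and -0.69 ± 0.093 in females (adjusted p = 0.000212). The male minus female difference of this contrast was 0.41 ± 0.132 (adjusted p = 0.289). Against the controls the resistant lines were lower by 0.61 ± 0.066 on the log2 scale (adjusted p = 1.53e-05). Its calls against the sensitive and the control lines held on leaving out each of the 24 arrays in turn. The call against the sensitive lines was lost with line as a random block (limma adjusted p = 0.069) and with line means (adjusted p = 0.934). It was also lost in the analysis of variance that the methods describe, rerun here with the Signal filter, which also ended the call against the controls.

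*eloF*, the elongase of female hydrocarbons, was read in females. Its female Signal was 2033 and 1653 in R1 and 2347 and 2981 in R2, against 3264 and 5565 in S1 and 4259 and 3969 in S2, without overlap. Control females gave 2918 and 3463 in C1 and 1783 and 2652 in C2, which overlapped both ranges. The female difference between resistant and sensitive lines was -0.93 ± 0.222 (adjusted p = 0.0175). Male pools ranged from 30 to 92.1 with a median of 49.2, about the level set for testing, and *eloF* passed the filter, with 18 arrays at 50 or more, through its level in females. In males the difference was -0.20 ± 0.222 (adjusted p = 0.717). The line effect of *eloF* had an adjusted p of 0.0229, and the gene was not called.

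*Elo68alpha*, the elongase linked to *cis*-vaccenyl acetate, was read in males. Its male Signal was 1096 and 521 in R1, 472 and 627 in R2, 1504 and 882 in S1, 1084 and 1033 in S2, 1499 and 886 in C1, and 1043 and 1469 in C2. R2 males were lowest, and R1 males overlapped with the sensitive and control males. The male difference between resistant and sensitive lines was -0.78 ± 0.661 (adjusted p = 0.569). Female pools ranged from 2.32 to 54.3, and *Elo68alpha* passed the filter with 13 arrays at 50 or more through its level in males. Since the log2 values of such low Signals spread widely, the difference over both sexes (-1.36 ± 0.468, adjusted p = 0.0586) rested largely on females (-1.94 ± 0.661) and became -0.59 on the scale log2(Signal + 50). Ejaculatory bulb transcripts (3 genes) summed to 49266 to 57117 in resistant males, 47649 to 57955 in sensitive males and 43880 to 55783 in control males. The same list summed to 11316 to 15881 in females, nearly all of it from *PebIII* (11305 to 15872). The male sums are therefore not a measure of the ejaculatory bulb alone.

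Counted over males alone, 6 of the 11 probe sets had every resistant pool below every sensitive pool (background 3.81%), and 5 of the 11 in females (background 1.96%). The probe sets without overlap in both sexes were those of *CG9458*, *CG16904*, *CG6660* and *bond*. By the contrast's own adjusted p within a sex, 7 were lower in resistant males (background 3.74%) and 4 in resistant females (background 2.97%). The test of the difference between the sexes called 0 of the 11 at an adjusted p under 0.05 (background 0.422%), with 4 at an unadjusted p under 0.05 (background 8.43%). Of these 4, the male minus female difference was negative for 2 and positive for 2. Between the 2 line pairs, the resistant minus sensitive difference was called unequal for 0 of the 11 (background 18.4%), with 1, *CG9459*, at an unadjusted p under 0.05 (background 30.7%).

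Averaged over C1 and C2 and over the sexes, the controls fell between the selected lines for most of the genes. In females C1 lay nearer the sensitive lines and C2 nearer the resistant lines for *CG9458*, *CG16904*, *CG9459* and *CG6660*. The mean female Signal of *CG16904* was 6832 in C1 and 3657 in C2, beside 3468 (R1), 3858 (R2), 6937 (S1) and 6650 (S2). That of *CG6660* was 1227 in C1 and 472 in C2, beside 458 (R1), 662 (R2), 1428 (S1) and 881 (S2). The resistant minus control difference had a median of -0.63 over the 11 probe sets, and the sensitive minus control difference a median of 0.48, both from the same control arrays, beside 0.00 and -0.02 over all tested probe sets. By the 2-step rule, *CG6660* (-0.83 ± 0.21) and *bond* were called lower in resistant lines than in controls (background 4.54%), and *CG6660* (0.64 ± 0.21) was the 1 probe set called higher in sensitive lines than in controls (background 2.75%). With the contrast's own adjusted p, 5 were lower in resistant lines (background 6.83%) and 2, *CG9458* (0.62 ± 0.195, adjusted p = 0.047) and *eloF* (0.56 ± 0.157, adjusted p = 0.0267), were higher in sensitive lines (background 4.2%). The value of *eloF* averages in male Signals about the level set for testing, and its sensitive and control female pools overlapped. Every resistant male pool was below every control male pool for 2 probe sets, *CG6660* and *bond* (background 3.68%), and every resistant female pool below every control female pool for *bond* alone (background 6.17%). No probe set had every sensitive pool above every control pool, in males (background 2.67%) or in females (background 1.7%).

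Averaged over the sexes, *bond*, *Elo68alpha* and *eloF* had controls at one end rather than in the middle. Sensitive minus control differences were -0.13 ± 0.066 (adjusted p = 0.231) in *bond* and 0.02 ± 0.468 (adjusted p = 0.986) in *Elo68alpha*. The resistant minus control difference of *eloF* was 0.00 ± 0.157 (adjusted p = 0.997), which averages opposite signs in the sexes. In females, where *eloF* was read, mean Signals were 2253 (resistant), 2704 (control) and 4264 (sensitive), so the controls lay between. In males they were 50.25, 43.17 and 60.1, about the level set for testing. In males, where *Elo68alpha* was read, its means were 679 (resistant), 1126 (sensitive) and 1225 (control). Its 0.02 also includes female Signals near the bottom of the scale.

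Lines of the same selection group also differed. *bond* was called higher in R1 than in R2 (0.21 ± 0.093, contrast adjusted p = 0.205, background 4.56% called higher) and higher in S1 than in S2 (0.32 ± 0.093, background 5.41%), and *CG6660* higher in C1 than in C2 (background 3.2%). These were the 3 called differences within a selection group among the 11 probe sets. For *CG6660*, the 1.02 between the control lines stands beside the 0.64 between sensitive and control lines.

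Male and female levels, which entered the choice of genes, are given without a test. *Elo68alpha* was 34.1-fold to 160-fold higher in males than in females across the 6 lines, as ratios against female Signals near the bottom of the scale. *eloF* was 37.5-fold to 79.3-fold higher in females, as ratios against male Signals about the level set for testing. On log2(Signal + 50), the male minus female difference was 3.89 for *Elo68alpha* and -4.88 for *eloF*, in place of 6.18 and -5.87. *bond* was 3.3-fold to 5.35-fold higher in males, and probe set b of *CG5326* 1.95-fold to 3.79-fold. For these 4 probe sets male and female pools did not overlap. In the array as a whole, 21.1% of tested probe sets had every male pool above every female pool and 31.5% the reverse.

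For the remaining genes male and female pools overlapped. *CG18609* was higher in males in every line, by 1.5-fold (R2) to 4.37-fold (C2). *CG9458*, *CG9459* and *CG6660* changed direction between lines, and for each of them R2 had the lowest male minus female difference (-0.10, -0.57 and -0.75 on the log2 scale) and S2 the highest (1.19, 1.74 and 0.98). *CG16904* ranged from 0.09 in R2 to 1.15 in C2, and *CG31523* from 0.04 in R2 to 0.60 in S2.

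**Figure D3:**
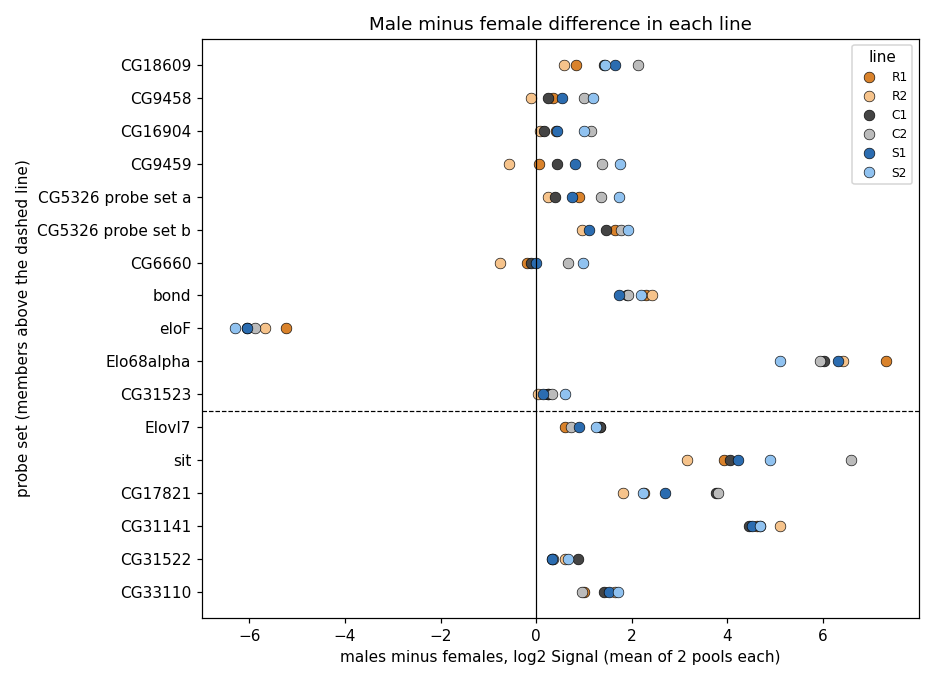
Male minus female difference in log2 Signal (horizontal axis) in each of the 6 lines (colours) for the tested elongase probe sets (vertical axis), with the 6 tested probe sets of other elongase genes below the dashed line. *Elo68alpha*, at 5.09 to 7.32, and *eloF*, at -6.31 to -5.23, lie farthest from 0 among the genes above the dashed line, and the values of *CG9458*, *CG9459* and *CG6660* lie on both sides of 0.

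The genes moved together from array to array. After the mean of each sex was removed, the Signals of *CG18609*, *CG9458*, *CG16904*, *CG9459* and *CG6660* correlated at r = 0.836 to 0.973 over the 10 pairs of these genes (median 0.925, 24 arrays, log2 scale), and all 55 pairs of the 11 probe sets at 0.318 to 0.973 (median 0.631). These values are descriptions, since the arrays share lines and pools. The genes of the 10 pairs were grouped with results of these arrays known. Their 30 pairs with the remaining probe sets ran from 0.351 to 0.894 (median 0.626). Those with probe set a of *CG5326* (0.793 to 0.894) and *CG31523* (0.788 to 0.875) reached into the same range. Only the mean of each sex was removed, so the correlations include differences between lines and selection groups. No correlation of genes at large was set beside them. The nearest genes were sought among tested probe sets paired with 1 gene, those of the same gene left out. *CG9458* was most like *CG16904* (0.973), *CG6660* most like *CG16904* (0.948), *CG18609* most like *CG9458* (0.926) and probe set a of *CG5326* most like *CG9458* (0.894). *CG9459* came next to *CG9458* (0.958) and *CG17562* (0.951), a gene of the fatty acyl-CoA reductase family. *CG31523* was most like *FASN2* (0.904), a fatty acid synthase gene, and *CG6660* also like *Sc2* (0.933), the enoyl-CoA reductase of the elongation cycle. *bond* kept apart from these and was most like *Cyp6a23* (0.904), a cytochrome P450 gene, and *Sardh* (0.879). For *eloF* the nearest was *Mnat9* (0.804) and for *Elo68alpha* *Vha100-1* (0.778). Correlations with these genes include low Signals, of *eloF* in males and of *Elo68alpha* in females, and are limited by them.

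The order of the genes on the chromosomes was set beside these correlations. *eloF*, *CG16904*, *CG9459* and *CG9458* are neighbours among coding genes, and their 6 pairs correlated at 0.407 to 0.973. The pairs with *eloF*, whose male Signals lay about the level set for testing, were at 0.407 to 0.6. The pairs among *CG16904*, *CG9459* and *CG9458* were at 0.924 to 0.973. *CG18609*, on chromosome arm 2R, and *CG6660*, away from the cluster on 3R, correlated with *CG16904*, *CG9459* and *CG9458* within the same 0.836 to 0.973.

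The same joint movement separated pools of a single line. In C1 males, pool 1 exceeded pool 2 in 11 of 11 probe sets, by a median of 0.85 on the log2 scale (0.21 to 1.92). In R1 males it did so in 11 of 11 (median 0.77) and in S1 males in 10 of 11 (median 0.77). In S1 females and C2 females pool 1 was lower in 11 of 11, by medians of -0.88 and -0.70. In 6 of the other 7 line and sex groups the median lay between -0.22 and 0.08, and in R1 females at 0.22, with 11 of 11 higher in pool 1. In R2 females 1 of 11 was higher in pool 1. The median size of the pool difference over all tested probe sets was 0.13 to 0.38 in the 12 groups.

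Muscle transcripts differed between some of these pools as well, by medians of 1.18 in C1 males, 1.16 in R1 males and -3.84 in S1 females, but by -0.38 in S1 males and 0.40 in C2 females, where the elongases went the other way. Their part in the elongase values was not tested. Without pool 1 of S1 females, 5 of the 11 probe sets were called lower in resistant than in sensitive lines, and without pool 2, 3 of the 11. *CG18609* was among them in both settings, at -1.71 and -1.40.

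**Figure D4:**
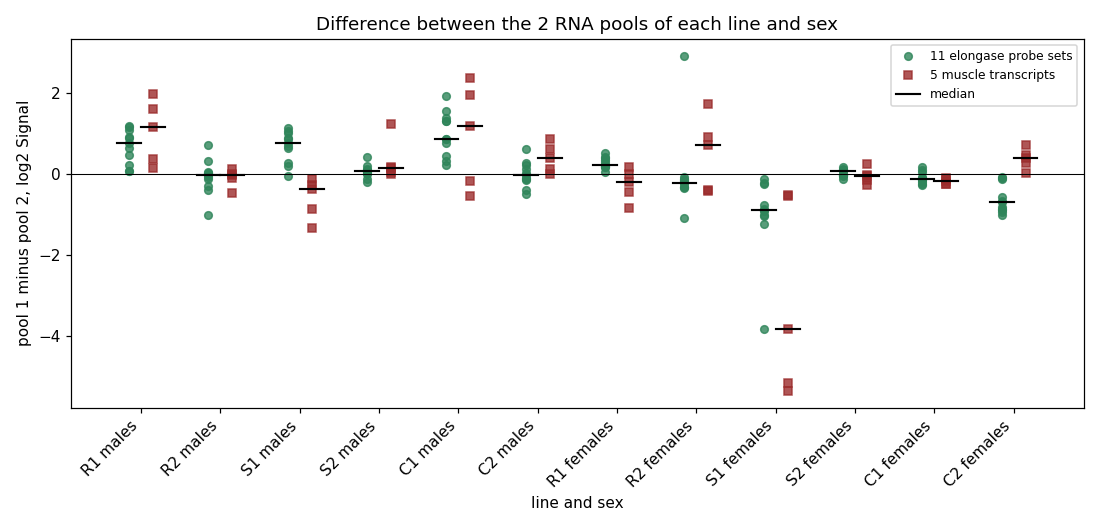
Difference in log2 Signal between pool 1 and pool 2 (vertical axis) of each line and sex (horizontal axis) for the 11 elongase probe sets (green circles) and 5 muscle transcripts (red squares), with medians as black bars. All 11 elongase probe sets lie above 0 in R1 males, C1 males and R1 females and below 0 in S1 and C2 females, while 10 of 11 lie above 0 in S1 males and 1 of 11 in R2 females, and the muscle transcripts of S1 females reach -5.35.

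Of 10 further elongase genes of the fly, 8 had a probe set of their own and 6 were tested: *Elovl7*, *sit*, *CG17821*, *CG31141*, *CG31522* and *CG33110*. Between resistant and sensitive lines 0 of the 6 were called, 1 (*CG31522*, 0.18 ± 0.063, higher in resistant lines) had an unadjusted p under 0.05 (background 29.1% in either direction), and the median difference was 0.00. The resistant line was lower in both pairs and both sexes for 1 of them, where the background was 7.08%, and higher for 1 (background 1498 of 11857). The count for the genes above was 10 of 11, with *eloF* and *Elo68alpha*, each near the bottom of the scale in 1 sex, among the 10. All 6 were higher in males, from 0.52 (*CG31522*) to 4.47 (*sit*) and 4.67 (*CG31141*) on the log2 scale. *sit* and *CG33110* lie beside *bond*, *CG17821* beside *CG18609* and *CG31522* beside *CG31523*. The differences of these neighbours over both sexes were 0.02 (*sit*), -0.04 (*CG33110*), -0.34 ± 0.276 (*CG17821*) and 0.18 (*CG31522*). Female Signals were low for *sit* (2.68 to 33.8) and *CG17821* (10.4 to 105.5). In males alone the differences were -0.49 ± 0.287 (*sit*), -0.18 ± 0.116 (*CG33110*), -0.56 ± 0.391 (*CG17821*) and 0.17 ± 0.089 (*CG31522*), with limma adjusted p-values of 0.298 to 0.462. For *sit* the female difference was 0.53 ± 0.287, so its 0.02 averages opposite signs.

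The 4 genes of the enzymes that complete the elongation cycle had negative differences between resistant and sensitive lines. *spidey*, the ketoacyl-CoA reductase, differed by -0.48 ± 0.082 (adjusted p = 0.000755), *Sc2* by -0.47 ± 0.1 (adjusted p = 0.00381), and the dehydratases *Hacd1* by -0.43 ± 0.108 (adjusted p = 0.0123) and *Hacd2* by -0.14 ± 0.052 (adjusted p = 0.0901). The 2-step rule called 0 of these 4, and 4 of 4 were lower at an unadjusted p under 0.05 (background 11.6% lower). The resistant line was lower in both pairs and both sexes for 2 of the 4 (background 7.08%), and *Hacd2* was higher in R1 than in S1 (0.12 ± 0.074). In females alone the 4 differences were -0.26 to -0.17 (limma adjusted p = 0.215 to 0.521), and in males -0.75 to -0.105. The limma adjusted p-values in males were 0.00112 (*spidey*), 0.00273 (*Sc2*), 0.0123 (*Hacd1*) and 0.462 (*Hacd2*).

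Among genes that supply fatty acids, 2 of 7 were called lower in the resistant than in the sensitive lines, where the background was 3.54%, and 0 higher. These were *FASN2*, at -0.78 ± 0.097 (adjusted p = 4.11e-05), and *bgm*, a very-long-chain acyl-CoA synthetase, at -0.36 ± 0.059 (adjusted p = 0.000449). *FASN1*, another fatty acid synthase gene, differed by 0.02 ± 0.062 and *ACC*, which makes malonyl-CoA, by 0.01 ± 0.057.

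Of 8 desaturase and related probe sets, 0 were called and 3 had an unadjusted p under 0.05 (background 29.1%), of which *CG15531* (-1.12 ± 0.199, adjusted p = 0.00102) and *Cyt-b5* (-0.34 ± 0.057, adjusted p = 0.000655) were lower and *ifc* (0.23 ± 0.043, adjusted p = 0.00175) higher in the resistant lines. The resistant line was lower in both pairs and both sexes for 2 of the 8 and higher for 2. Over all 11857 tested probe sets, 840 were lower and 1498 higher in this way. *Fad2*, the female desaturase of the dienes, differed by -0.78 ± 0.476 (adjusted p = 0.307). Of 16 probe sets of hydrocarbon and fatty alcohol formation, 0 were called and 6 had an unadjusted p under 0.05, all lower in the resistant lines (background 11.6% lower), among them the acyl-CoA reductase family genes *CG4020* (-1.03 ± 0.154, adjusted p = 0.000225), *CG17560* (-0.86 ± 0.199, adjusted p = 0.00679) and *CG17562* (-0.78 ± 0.143, adjusted p = 0.00126). *Cyp4g1*, the oenocyte P450 that forms hydrocarbons, differed by -0.10 ± 0.081 (adjusted p = 0.467). In whole flies, fewer cells of a type and less RNA per cell cannot be told apart. The 2 oenocyte transcripts *Cyp4g1* and *Fad2* summed to 21945 to 28719 in resistant females and 26552 to 39908 in sensitive females, with 19667 to 25051 and 19799 to 25574 in males. The 2 were not alike in females. *Cyp4g1* ranged from 17975 to 21433 in resistant and from 18874 to 27434 in sensitive females, a difference of -0.13 ± 0.114 (adjusted p = 0.599). *Fad2* ranged from 3971 to 7287 and from 5736 to 12474, a difference of -0.96 ± 0.673 (adjusted p = 0.481). In males *Fad2* was at most 16.9 in resistant and 35.1 in sensitive pools.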

How the data were processed

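Total RNA of 24 pools was hybridized to Affymetrix Drosophila Genome 2.0 arrays. The deposited intensity values are MAS5 Signals on a linear scale, which the authors scaled across each array. Their stated target was a median of 500, and here the 2% trimmed mean of each array was 500.01 to 500.02, while array medians ran from 131 to 150 (males) and from 55.7 to 81 (females). Values here were set to a floor of 1 and taken to log2. A mean for each of 12 groups of line and sex was fitted with limma 3.58.1 (R 4.3.3), with an intensity trend, and p-values were adjusted over the 11857 tested probe sets by Benjamini-Hochberg. Scripts were tested on simulated data. The number of arrays limits the precision. Genes were named through the platform's annotation, which pairs 13647 probe sets with 1 gene, 402 with several and 4720 with none, updated through RefSeq release 6, which also gave chromosome arms and the order of genes. Probe sets paired with several genes were not used. Every gene chosen is named, with lists of the surrounding pathway and of markers of other tissues. Genes, lists and tests were chosen with earlier results of these data known. Replicate numbers did not pair samples. Alternatives were another log scale, no filter, quantile normalization, no trend, the methods' analysis of variance, a replicate block, line as a random block, line means and leaving out each array.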

Additional observations from a re-analysis of the deposited data

Results flagged for a closer look

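In 66 sets of 4 arrays, those of a selection group and sex for each tested elongase probe set, 1 array stood apart from the other 3 by Dixon's 95% criterion in 8. For 4 arrays drawn alike, chance alone marks about 1 in 20 sets. Each set here joins 2 lines, and the probe sets move together from pool to pool. The 8 therefore cannot be judged against that rate. In *CG18609*, pool 1 of S1 females (1095) lay below the other sensitive females (2391 to 2593) and pool 1 of C2 females (797) below the other control females (1365 to 1472). Pool 1 of S1 females was also low in *CG9459* (407.3, others 729.2 to 765.1). In *CG5326*, pool 1 of R2 males (95.6) was below the other resistant males (191.5 to 209.3). *CG6660* had 3 such arrays: pool 2 of S1 males (941, others 1696 to 1885), pool 2 of S1 females (1913.8, others 872.5 to 942.4) and pool 1 of C1 males (1837, others 703.4 to 759.3). In *bond*, pool 1 of S1 males was high (1906.6, others 1659 to 1671). Of the 8 values, 5 came from pools of S1.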

How the results depend on the processing

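The count of elongase probe sets called lower in resistant than in sensitive lines was 2 of 11 and ranged from 1 to 5 on leaving out 1 array. It was 5 without either pool of C1 males or pool 1 of S1 females, 3 without pool 1 of R1 males or pool 2 of S1 females, and 1 on leaving out any one of 14 arrays. Without a C1 array the difference between resistant and sensitive lines is the same by construction, and the calls moved through the error and the line effect. The same ranges were 1 to 5 for the line effect, for each sex and for resistant against control lines, 0 to 4 for sensitive against control lines and 1 to 4 within selection groups, with 0 for the interaction. On log2(Signal + 50), 6 were called for the line effect, between resistant and sensitive lines, in males, and against controls, and 5 in females and for sensitive against control lines. Without the trend these counts were 1, within selection groups too, and 0 for sensitive against control lines, and the methods' analysis of variance on Signal called 0 in each. The causes of these shifts were not tested. That analysis of variance was rerun here with the Signal filter, in place of the study's exclusion of probe sets mostly called Absent. Its counts are therefore not the study's own result for these genes. Line as a random block called 1 (*CG18609*) between resistant and sensitive lines, 1 against controls and 0 for sensitive against control lines, and line means called 0. By the contrast's own adjusted p, added after seeing the data, the counts were 9, 5 and 2. Without the filter, with quantile normalization and with the replicate block, which left the count between resistant and sensitive lines at 2, no count moved. The replicate numbers share a number only: over 66 pairs of groups the correlation of same-numbered deviations ran from -0.15 to 0.176. The signs of the resistant minus sensitive differences were negative for all 11 probe sets under each alternative on a log scale and each array left out. The male minus female difference of *CG6660* was 0.10 and ran from -0.015 (without pool 1 of C1 males) to 0.215 on leaving out 1 array. On log2(Signal + 50), that of *eloF* was -4.88 and that of *Elo68alpha* 3.89. Over all tested probe sets, the interaction calls went from 29 to 51 on log2(Signal + 50), 18 without the trend, 81 by the analysis of variance and 15 to 97 on leaving out 1 array. Pool 1 of S1 females left out raised the calls in females from 849 to 1318 and against controls from 932 to 1430. The random block gave 94, 24 and 20 calls between resistant and sensitive, resistant and control, and sensitive and control lines. Low Signals limit *eloF* in males and *Elo68alpha* in females.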
